A study of Mus musculus with 6 samples.

Results

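The genes described here encode the proteasome, the barrel-shaped protease that degrades ubiquitin-tagged proteins, measured in mouse presomitic mesoderm with and without the T-Cre deletion of Taf10. They were chosen by name alone, as probe sets whose only gene symbol on the platform begins with Psma, Psmb, Psmc, Psmd, Psme, Psmf or Psmg and a number. The rule found 56 of 16311 single-symbol probe sets, out of 18064 in the table, and these stand for 50 genes. Psmc3ip and Psme3ip1 match by their letters but are named as interacting proteins and are not subunits, so 54 probe sets for 48 proteasome genes remained. These split into 19 core genes (Psma and Psmb), 20 regulatory genes (Psmc and Psmd) and 9 genes for activators, an inhibitor and assembly factors (Psme, Psmf and Psmg). A further probe set that carries both Psme2 and Psme2b was left out.

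Presomitic mesoderm, the tissue that buds off somites, was taken from embryos at embryonic day 9.5, at 17 to 19 somites. Each array read a pool of 3 tissues, with 3 pools of controls (Taf10Flox/+ or Taf10flox/flox, labelled WT, with no Cre named in that label) and 3 pools of mutants (TCre/+;Taf10flox/flox). Controls therefore carried at least 1 floxed Taf10 allele, and in mutants Cre was driven by T, a gene of the primitive streak and its mesoderm. Array medians ran from 307.9 to 317.5 intensity units, and mutant 3 stood apart from the other arrays. A Taf10 probe set (10365288) fell to 77.1% of control (log2 -0.37, SE 0.08, limma adjusted p = 0.0400). Another (10566525) did not pass (log2 0.11, adjusted p = 0.530), and which of them reads the deleted part is not known here. Their numbers lie far apart in the numbering of the array, which follows the chromosomes, so they cannot both sit at the Taf10 locus. The locus of each was not checked, so the fall is not shown to be loss of Taf10 itself. The summed intensity of 9 presomitic markers was 14.39 to 14.48 on the log2 scale in controls and 14.61 to 14.71 in mutants. The single markers went both ways, with 5 positive and 4 negative changes. Limma called 2 higher (Tbx6 and Hes7) and 2 lower (Rspo3 and Cyp26a1). The summed intensity of 5 red cell markers was 13.18 to 14.46 in controls and 11.97 to 14.02 in mutants. It was lowest on mutant 3, and its part in the results below was not tested. In RNA from whole tissue, fewer cells of a type and less RNA per cell cannot be told apart.

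The proteasome has a core particle of stacked rings, with outer rings of alpha subunits (Psma genes) that gate the entrance and inner rings of beta subunits (Psmb genes), some of which cut protein. A regulatory particle docks on the core, where a ring of ATPases (Psmc genes) unfolds substrates and the non-ATPase subunits (Psmd genes) bind and remove ubiquitin. Its subunits are made in every cell and their genes are often controlled together, in mammals chiefly through the transcription factor NRF1 (Nfe2l1), while interferon brings in alternative catalytic subunits.

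No proteasome gene passed the test between mutant and control pools. By limma, with p-values adjusted over all 16311 probe sets, 0 of 48 genes were higher and 0 lower at an adjusted p under 0.05, where 5.92% of all 15153 genes and 5.96% of all probe sets were called, 2.96% of the genes in each direction. At an unadjusted p under 0.05 limma gave 5 of 48, with 1 higher (Psme1) and 4 lower (Psmg4, Psmd10, Psma5 and Psmc1), beside 22.7% of all genes (11.7% higher and 10.9% lower). The smallest adjusted p was 0.104, for Psmg4. Mutant and control values did not overlap in 11 of 48 genes, with all mutant pools lower in 10 and higher in 1, beside 32.3% of all genes (15.1% lower and 17.2% higher). The log2 changes of the 48 genes, mutant minus control, ran from -0.41 to 0.18 with a median of -0.09, where the median of all genes was 0.03. Of the 48 changes 35 were negative, against 40.7% of all genes.

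The arrays bounded most of these changes tightly, as they did those of most genes. The 95% interval lay within 0.5 log2 units of no change, which is 1.41-fold, for 41 of 48 genes, and within 1 log2 unit for 47. Of all 15153 genes 12755 lay within 0.5 and 14964 within 1. The 7 wider ones were those of Psma2, Psma6, Psmb4, Psmb6, Psmc2, Psmc5 and Psmd6. Without mutant 3 the interval lay within 0.5 for all 48 genes, beside 13990 of all 15153 genes. In that fit the median moved to -0.03, and 0 of 48 genes were called, beside 12.8% of all genes (6.41% higher and 6.43% lower). At an unadjusted p under 0.05 limma then gave 10 of 48, beside 27.1% of all genes. The count was not 0 under every setting. With limma's array weights, which ran from 0.125 for mutant 3 to 4.73 for mutant 2, Psmg4, Psmb1 and Psmd10 passed as lower and Psmd5 as higher, beside 24.1% of all probe sets. Without control 3 and mutant 3 together, a choice made after seeing the data, 1 gene passed, Psmb1, as lower (log2 -0.28, SE 0.06, limma adjusted p = 0.0258). In that fit 6.62% of all genes were called lower and 7.40% higher.

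**Figure D1:**
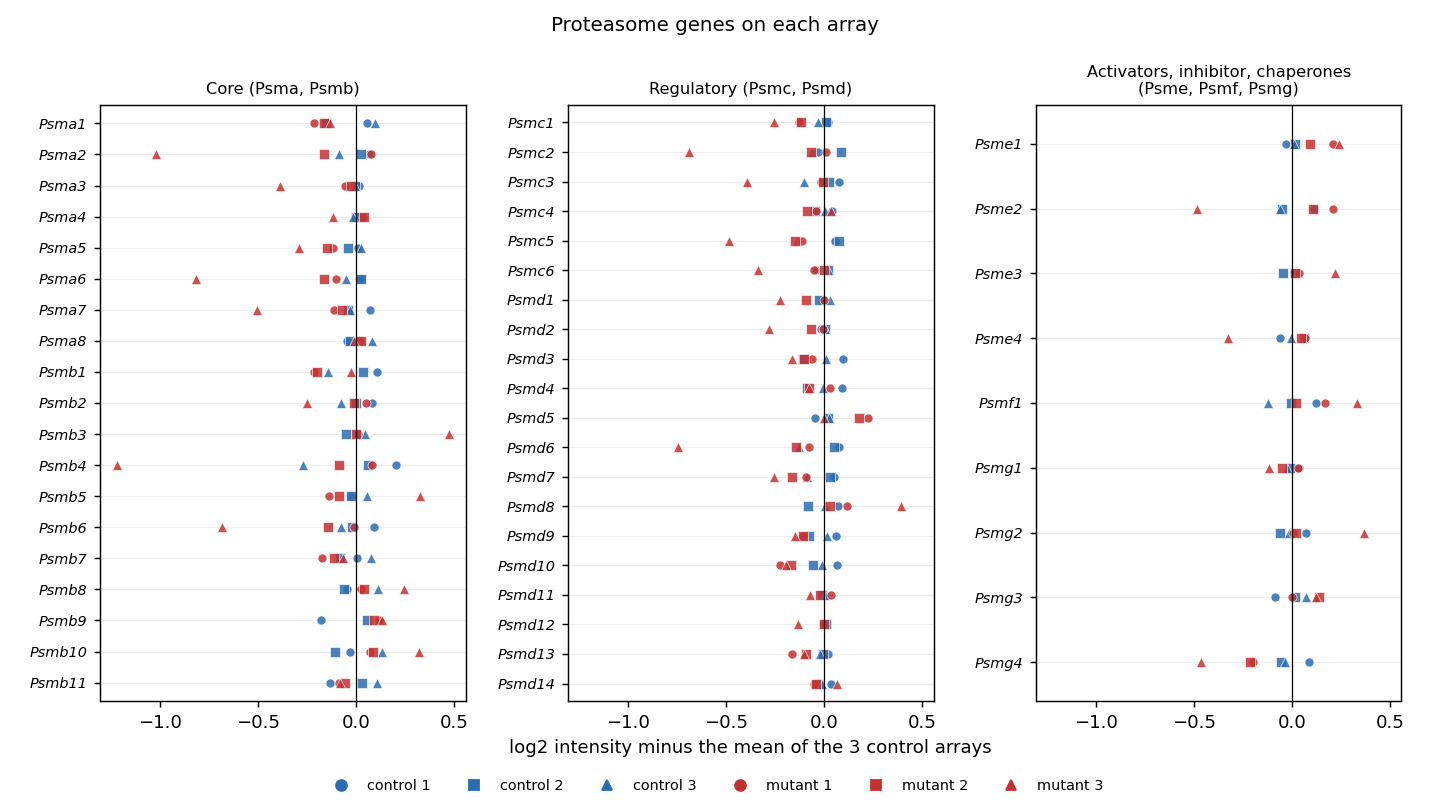
The 48 proteasome genes, 1 to a row, with log2 intensity relative to the control mean on the x axis. Points are single arrays, blue for the 3 controls and red for the 3 mutants, and their shape gives the replicate number. Mutant 3 (red triangles) lies far to the left for Psmb4, Psma2, Psma6 and Psmd6 and to the right for Psmb3, Psmd8 and Psmb5, while mutants 1 and 2 stay near the controls.

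The 7 alpha ring genes all had negative changes and none passed, with a median of -0.19 and a range from -0.37 to -0.01. Without mutant 3 the median was -0.092, with 6 negative and Psma4 at 0.04. Mutant values lay below all controls in 4 of the 7, Psma3, Psma5, Psma6 and Psma7, beside 15.1% of all genes. For Psma3 this holds for the brightest of its probe sets (10543783), while the one at its own locus (10396193) overlapped. Psma5 had the smallest p of the core genes. Its probe set (10495279) read log2 levels of 10.26, 10.20 and 10.27 in controls 1 to 3 and 10.12, 10.09 and 9.95 in mutants 1 to 3. All mutants were lower and averaged 87.9% of control (log2 -0.19, SE 0.07, limma adjusted p = 0.165).

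Psma1 read 11.47, 11.27 and 11.52 in controls and 11.21, 11.26 and 11.29 in mutants (log2 -0.17, SE 0.08, limma adjusted p = 0.261). Here mutant 3 was the highest mutant and overlapped control 2. Psma6 read 11.47, 11.47 and 11.39 in controls against 11.34, 11.28 and 10.63 in mutants (log2 -0.36, SE 0.17, adjusted p = 0.264). Its mutants were all lower, and without mutant 3 the change was -0.13 (SE 0.06). Psma2 showed the same array more strongly, at 10.46, 10.42 and 10.31 in controls and 10.47, 10.23 and 9.37 in mutants. Its change of -0.37 (SE 0.25) was -0.04 without mutant 3. The other members were Psma7 (log2 -0.23), Psma3 (log2 -0.16) and Psma4 (log2 -0.01, 95% interval -0.17 to 0.14).

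The 7 standard beta ring genes had a median change of -0.12, with 5 negative and 2 positive and none passing, and of -0.079 without mutant 3. Psmb5, Psmb6 and Psmb7 encode the catalytic subunits. Psmb5, which carries the chymotrypsin-like activity, read 12.41, 12.41 and 12.50 in controls and 12.30, 12.35 and 12.77 in mutants. Mutants 1 and 2 were below every control and mutant 3 above every control, and the log2 change of 0.03 (95% interval -0.25 to 0.31) turned to -0.11 (SE 0.06) without mutant 3. Psmb6, which carries the caspase-like activity, read 11.23, 11.12 and 11.06 in controls and 11.13, 10.99 and 10.46 in mutants. Mutant 3 was again the extreme array but on the low side, and the change was -0.28 (SE 0.16, limma adjusted p = 0.343). Psmb7, which carries the trypsin-like activity, read 11.17, 11.08 and 11.24 in controls and 10.99, 11.05 and 11.10 in mutants (log2 -0.12, SE 0.07, adjusted p = 0.358). Only mutant 3 overlapped the controls.

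Among the beta subunits that do not cut, Psmb4 had the most negative change of all 48 genes. It read 11.75, 11.60 and 11.27 in controls and 11.63, 11.46 and 10.32 in mutants. Mutants 1 and 2 lay within the range of the controls, and the mean change of -0.41 (SE 0.31, limma adjusted p = 0.473) was carried by mutant 3. Without that array the change was 0.00 in size to 2 decimals, with a 95% interval from -0.30 to 0.30. Psmb1 read 10.85, 10.77 and 10.59 in controls and 10.52, 10.54 and 10.71 in mutants, so mutant 3 lay among the controls (log2 -0.15, SE 0.09, adjusted p = 0.368). Without mutant 3 its change was -0.21 (SE 0.08, adjusted p = 0.134). Psmb2 (log2 -0.07) and Psmb3 (log2 0.16) also did not pass, and Psmb3 read 13.34 on mutant 3 against 12.82 to 12.91 on the other 5 arrays.

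The inducible and tissue-restricted core genes had small positive changes in 4 of 5 cases and none passed. Psmb8, Psmb9 and Psmb10 encode the subunits that replace the standard catalytic ones in the immunoproteasome, which favours peptides for class I antigen presentation. Psmb8 read 5.71, 5.70 and 5.87 in controls and 5.79, 5.80 and 6.01 in mutants (log2 0.10, 95% interval -0.09 to 0.30). Psmb9 read 7.74, 7.98 and 8.04 in controls and 8.04, 8.01 and 8.05 in mutants (log2 0.11, 95% interval -0.08 to 0.31). Psmb10 read 8.51, 8.43 and 8.67 in controls and 8.61, 8.62 and 8.86 in mutants (log2 0.16, 95% interval -0.06 to 0.38). Mutants overlapped the controls in all 3, and control 3 was the highest control for each. Psma8, known from the testis, stayed between 5.75 and 5.88 on the 6 arrays (log2 0.01, 95% interval -0.14 to 0.16). Psmb11, the subunit of the thymus, lay between 6.52 and 6.76 (log2 -0.07, 95% interval -0.25 to 0.10). Psmb8, Psma8 and Psmb11 were dropped by a filter at the 40th percentile of level, which kept 16 of the 19 core genes. Whether their signal lies above background was not tested, so their narrow intervals do not show steady expression. Leukocytes are the usual source of immunoproteasome transcripts. Of 7 leukocyte markers 0 passed by limma, with 0 at an unadjusted p under 0.05. Their summed intensity was 8.96 to 9.09 on the log2 scale in controls and 9.06 to 9.22 in mutants. Whether the signal of these markers lies above background was not tested either. Neither the sum nor the lack of calls therefore shows the leukocyte content of the pools.

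All 6 ATPase ring genes had negative changes, with a median of -0.15 and none passing. Without mutant 3 all 6 were still negative, with a median of -0.045. Psmc1 had the smallest p, with a probe set (10397741) that read 10.40, 10.38 and 10.34 in controls and 10.25, 10.26 and 10.12 in mutants. The mutants were all lower (log2 -0.17, SE 0.07, limma adjusted p = 0.187). Psmc5 read 9.56, 9.58 and 9.36 in controls and 9.39, 9.35 and 9.01 in mutants (log2 -0.25, SE 0.11, adjusted p = 0.242), and mutant 1 overlapped control 3. Psmc2 read 9.72, 9.84 and 9.69 in controls against 9.76, 9.68 and 9.06 in mutants. Its change of -0.25 (SE 0.17) was -0.03 without mutant 3. Psmc3 (log2 -0.14), Psmc6 (log2 -0.13) and Psmc4 (log2 -0.03) made up the ring.

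Of the 11 non-ATPase subunit genes 10 had negative changes, with a median of -0.11, and none passed. Without mutant 3 the median was -0.045, with 9 negative. Psmd7, which pairs with the deubiquitinase PSMD14, read 11.04, 11.01 and 10.90 in controls and 10.89, 10.82 and 10.73 in mutants. The mutants were all lower, mutant 1 by a narrow margin (log2 -0.17, SE 0.07, limma adjusted p = 0.222). Psmd14 itself, which cuts ubiquitin chains off substrates, did not pass, with values between 11.95 and 12.07 on all arrays (log2 -0.01, 95% interval -0.16 to 0.14). Psmd13 had mutants all lower as well, at 10.66, 10.63 and 10.62 in controls and 10.47, 10.54 and 10.54 in mutants (log2 -0.12, SE 0.06). Psmd6 read 10.94, 10.92 and 10.74 in controls and 10.79, 10.73 and 10.12 in mutants (log2 -0.32, SE 0.17), and mutant 3 set most of that difference, with -0.11 when it was left out. Psmd8 was the positive one, at 11.29, 11.13 and 11.22 in controls and 11.33, 11.25 and 11.60 in mutants (log2 0.18, SE 0.10, adjusted p = 0.330). The large scaffold subunits Psmd1 (log2 -0.11) and Psmd2 (log2 -0.12), the ubiquitin receptor Psmd4 (log2 -0.04), and Psmd3 (log2 -0.11), Psmd11 (log2 -0.02) and Psmd12 (log2 -0.05) all had 95% intervals inside 0.5 log2 units.

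Assembly of the regulatory particle is helped by chaperones named Psmd5, Psmd9 and Psmd10, and none of them passed. Psmd10, also known as gankyrin, had the smallest p of the regulatory genes. It read 9.86, 9.74 and 9.79 in controls and 9.58, 9.63 and 9.60 in mutants, with no overlap and with mutant 3 between the other mutants (log2 -0.20, SE 0.06, limma adjusted p = 0.117). Leaving out mutant 3 left the change at -0.20 (adjusted p = 0.0690). Psmd9 read 8.43, 8.29 and 8.38 in controls and 8.26, 8.26 and 8.22 in mutants (log2 -0.12, SE 0.07, adjusted p = 0.314). Psmd5 was on the other side, at 10.63, 10.69 and 10.70 in controls and 10.90, 10.85 and 10.67 in mutants. Mutants 1 and 2 lay above every control and mutant 3 among them, so the change was 0.13 (SE 0.08, adjusted p = 0.342) with all arrays and 0.20 (SE 0.05, adjusted p = 0.0509) without mutant 3. That was the smallest adjusted p of any proteasome gene in the fit without mutant 3.

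The chaperones of core assembly, Psmg1 to Psmg4, included the gene with the smallest p of all 48. Psmg4 (10404531) read 9.09, 8.94 and 8.96 in controls and 8.80, 8.79 and 8.54 in mutants. Each mutant was below each control, and the mean stood at 81.8% of control without passing the threshold (log2 -0.29, SE 0.09, 95% interval -0.50 to -0.08, limma adjusted p = 0.104). Without mutant 3 the change was -0.20 (SE 0.06, adjusted p = 0.0706). Its partner Psmg3 read 7.20, 7.30 and 7.36 in controls and 7.29, 7.43 and 7.41 in mutants (log2 0.09, 95% interval -0.08 to 0.26). The filter on level dropped Psmg3 as well, and whether its signal lies above background was not tested. The other pair of chaperones was Psmg1 (log2 -0.04, 95% interval -0.20 to 0.11) and Psmg2 (log2 0.13, 95% interval -0.11 to 0.38), and Psmg2 owed its value to 10.28 on mutant 3 against 9.85 to 9.98 elsewhere.

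Among the caps and the inhibitor, Psme1 had the most positive change of the 48 genes (0.182, with 0.189 for the less bright probe set of Psmb3 at its own locus) and was the 1 gene with all mutants above all controls. Psme1 and Psme2 encode the interferon-inducible cap PA28, which opens the core without ATP. Psme1 read 10.05, 10.09 and 10.09 in controls and 10.29, 10.17 and 10.32 in mutants (log2 0.18, SE 0.07, 95% interval 0.03 to 0.34, limma adjusted p = 0.154). Its partner Psme2 read 9.67, 9.51 and 9.496 in controls and 9.77, 9.66 and 9.07 in mutants. Mutants 1 and 2 were at the top of the control range or above it and mutant 3 was far below (log2 -0.05, SE 0.17, and 0.16, SE 0.07, without mutant 3). Psmf1, an inhibitor of the core, read 9.95, 9.82 and 9.70 in controls and 9.99, 9.84 and 10.15 in mutants (log2 0.18, SE 0.10, adjusted p = 0.338). Psme3, the nuclear cap (log2 0.09), and Psme4, the cap PA200 (log2 -0.07), did not pass. The genes that match by letters alone did not pass either, Psmc3ip with a log2 change of -0.15 (limma adjusted p = 0.337) and Psme3ip1 with 0.03 (limma adjusted p = 0.821).

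**Figure D2:**
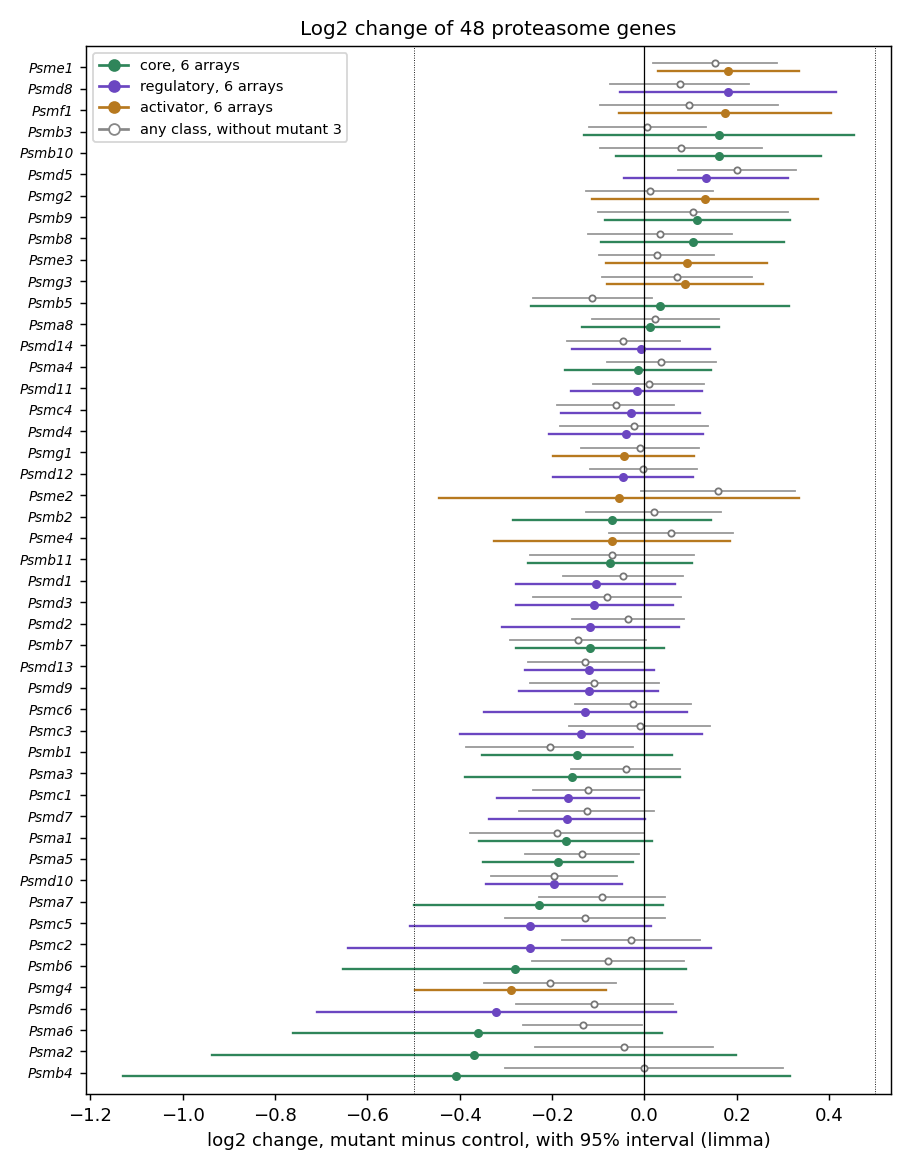
Log2 change, mutant minus control, of the 48 proteasome genes with its 95% interval from limma (x axis), sorted by the change; filled points use all 6 arrays and are coloured by class, open grey points leave out mutant 3, and dotted lines mark a change of 0.5. Psmb4 at -0.41 and Psma2 at -0.37 have wide intervals that narrow around 0.00 and -0.04 without mutant 3, while Psmd10 stays at -0.20.

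Mutant 3 differed from mutants 1 and 2 in opposite directions for subunits of the same ring. It was the lowest mutant in 29 of 48 genes, beside 33.1% of all genes. It lay at least 0.3 log2 units below their mean in 13 of 48 genes, beside 11.8% of all genes, and at least 0.3 above it in 4, beside 9.17%. The 7 genes at least 0.5 below were Psmb4 (-1.22), Psma2 (-0.98), Psma6 (-0.68), Psmc2 (-0.66), Psme2 (-0.64), Psmd6 (-0.64) and Psmb6 (-0.61), where 4.33% of all genes were as low. The 4 above were Psmb3 (0.47), Psmb5 (0.44), Psmg2 (0.36) and Psmd8 (0.32). Over the 48 genes the SD of this difference was 0.35 log2 units, against 0.08 to 0.12 when a control was set against the other controls. Over all genes these SDs were 0.26 and 0.11 to 0.13.

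Control 3 showed no common lean from the other controls over the 48 genes (median difference -0.007, with 26 below and 22 above). Gene by gene, its differences partly went with those of mutant 3, on a smaller scale. On control 3 Xist, the RNA of the inactive X chromosome, read 6.32 on the log2 scale against 11.35 to 12.57 on the other 5, and its part in the pattern was not tested. The difference of control 3 from controls 1 and 2 was lowest for Psmb4 (-0.40) and highest for Psmb10 (0.20). Across the 48 genes it went with the mutant 3 difference at Pearson's r = 0.61 and Spearman's rho = 0.55, and the sign was shared by 32 of 48 (66.7%), beside 66.0% of all genes. Without Psmb4 and Psma2 r was 0.47 and rho 0.50, and over all 15153 genes r was 0.29 and rho 0.35. In the core genes r was 0.73 and rho 0.65, with 15 of 19 signs shared. In the regulatory genes r was 0.58 and rho 0.28, with 10 of 20 shared. These are descriptions across genes, which share their arrays and are not independent. The mutant 3 difference showed little relation to a gene's level (r = -0.10 over the 48 genes), where over all genes r was -0.31.

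**Figure D3:**
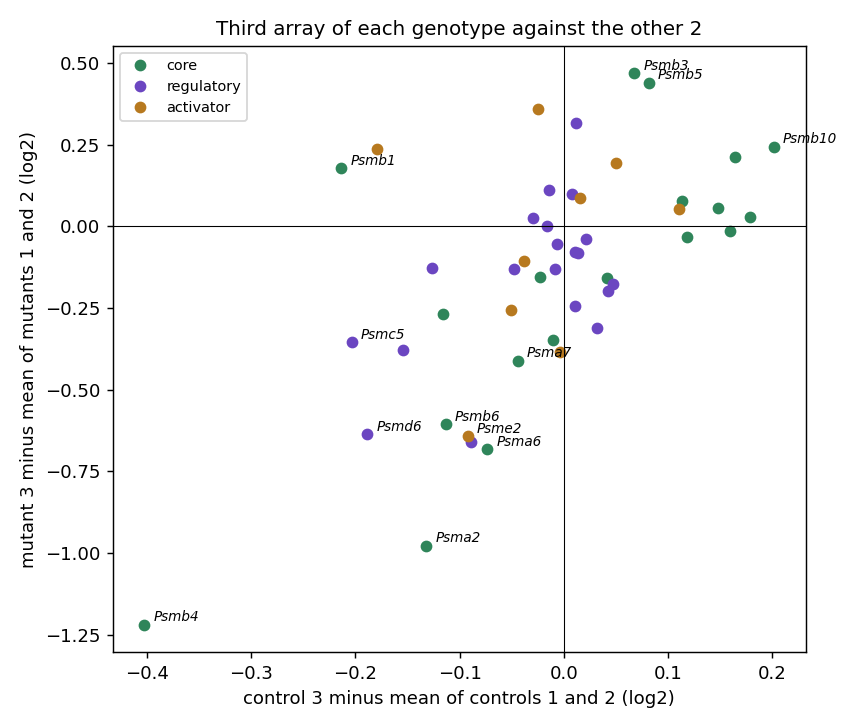
Difference of mutant 3 from the mean of mutants 1 and 2 (y axis) against that of control 3 from the mean of controls 1 and 2 (x axis), both in log2 units; each point is a proteasome gene coloured by class, and some of the outlying genes are labelled. Psmb4 lies lowest on both axes, at -1.22 and -0.40, and Psmb3 and Psmb5 lie highest on the y axis.

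Of the 48 genes 5 had several probe sets, and some of these may read copies elsewhere in the genome. In the numbering of the array, which follows the chromosomes, 48 of 54 probe sets had most of their 20 nearest named neighbours on the chromosome of the gene, and 6 did not. Those 6 were extra probe sets of Psma3 (10419711 and 10543783), Psma5 (10365426), Psmb3 (10434643), Psmc1 (10439878) and Psmd2 (10362392). The probe set with the highest mean stood for its gene, and for Psma3, Psmb3 and Psmd2 that was such a probe set. For Psma5 the other probe set read 10.30, 10.15 and 10.18 in controls and 10.05, 9.96 and 9.78 in mutants, again without overlap (log2 -0.28, SE 0.09, limma adjusted p = 0.104). The probe sets of Psmb3 changed by 0.16 and 0.19, those of Psmc1 by -0.17 and -0.18, those of Psmd2 by -0.12 and -0.08, and those of Psma3 by -0.16, -0.17 and 0.01.

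Promoters of the members were searched for the core of the antioxidant response element, the motif bound by NRF1 and NRF2 (Nfe2l2) with small Maf partners. The motif was written TGACNNNGC and sought on both strands from 250 bases before to 50 bases after the RefSeq start (build GRCm38.p6). An entry matched for 40 of the 48 genes and was missing for Psma8, Psmb1, Psmb2, Psmb7, Psmc3, Psmd3, Psmd7 and Psmg2. The motif was present in 6 of the 40 genes (15%), against 14% of 27025 genes in the same table. The 6 stretches follow, read 5′ to 3′ along the strand of the gene with the motif in capitals. They are shown because they include 2 of the catalytic subunit genes, Psmb5 and Psmb6, and each can be set beside its gene's values.
Psmb5 (chr14:54618024-54618052, minus strand): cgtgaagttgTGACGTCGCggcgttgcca
Psmb6 (chr11:70525338-70525366, plus strand): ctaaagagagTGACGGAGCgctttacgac
Psmd9 (chr5:123228149-123228177, plus strand): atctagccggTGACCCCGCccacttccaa
Psmc6 (chr14:45329587-45329615, plus strand): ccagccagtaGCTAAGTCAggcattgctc
Psmd12 (chr11:107479278-107479299, plus strand): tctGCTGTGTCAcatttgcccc
Psme4 (chr11:30771758-30771786, plus strand): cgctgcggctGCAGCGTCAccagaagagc
In Psmc6, Psmd12 and Psme4 the motif is on the other strand and so appears reversed. The motif began 47 bases before the start in Psmb5, 31 in Psmd9 and 9 in Psmb6. None of the 6 genes passed, and their changes were 0.03 for Psmb5, -0.28 for Psmb6, -0.12 for Psmd9, -0.13 for Psmc6, -0.05 for Psmd12 and -0.07 for Psme4. Their median was -0.10, beside -0.06 for the 34 genes without a match in the window, and without mutant 3 these were -0.052 and -0.032. The CCAAT box, bound by NF-Y, was present in 14 of 40 genes (35%), against 41.1% of all genes in the table, with medians of -0.16 with it and -0.05 without it. Without mutant 3 those medians were -0.044 and -0.0057. Neither letter pattern shows that a factor binds there.

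Of 13 measured genes that act on proteasome transcription, Ngly1 passed as higher and Nfyc as lower, where 2.96% of all genes were called in each direction. Ngly1, the enzyme that removes sugars from NRF1 so that it can act, read 6.99 to 7.01 in the 3 controls and 7.57, 7.43 and 7.37 in mutants. The groups did not overlap and it rose 1.37-fold (log2 0.46, SE 0.07, limma adjusted p = 0.0133). Without any 1 of the controls it no longer passed, with limma adjusted p-values of 0.0797 without control 1, 0.0871 without control 2 and 0.0543 without control 3. Few probe sets passed in those fits at all, 0.31%, 0.47% and 2.16% in that order, against 5.96% with all arrays. The filter on low levels removed Ngly1, so it was not tested there. Nfyc, a subunit of NF-Y, read 11.22, 11.11 and 11.07 in controls and 10.78, 10.72 and 10.77 in mutants. It fell to 77.0% of control (log2 -0.38, SE 0.07, limma adjusted p = 0.0217), with no overlap. Among the fits with 1 array left out it passed solely in the one lacking mutant 3 (limma adjusted p = 0.00859). The adjusted p-values were 0.107, 0.112 and 0.0538 when control 1, 2 or 3 was dropped, and 0.0557 and 0.0727 when mutant 1 or 2 was dropped. Nfe2l1 itself did not pass, at 10.35, 10.26 and 10.48 in controls and 10.35, 10.27 and 10.30 in mutants (log2 -0.06, SE 0.07, limma adjusted p = 0.659). Nfe2l2 read 9.77, 9.64 and 9.67 in controls and 9.37, 9.41 and 9.47 in mutants, all lower, and missed the threshold (log2 -0.27, SE 0.07, limma adjusted p = 0.0553). It passed without mutant 3 (0.0168), without control 3 and mutant 3 (0.0245), with the filter on low levels (0.0436) and with array weights (0.00265).

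Of 10 measured genes for subunits and bound proteins with other names 0 passed by limma, beside 5.92% of all genes. At an unadjusted p under 0.05 limma gave 2, both lower, beside 22.7% of all genes (10.9% lower). Ecpas, a scaffold protein of the assembled proteasome, read 10.25, 10.41 and 10.25 in controls and 10.05, 10.01 and 9.44 in mutants. All mutants were lower (log2 -0.47, SE 0.16, limma adjusted p = 0.123), and without mutant 3 the smaller change of -0.27 passed (SE 0.07, adjusted p = 0.0348), as did that with array weights (0.00733) and that without control 3 and mutant 3 (0.0336). The thioredoxin-like Txnl1 read 10.81, 10.82 and 10.82 in controls and 10.62, 10.71 and 10.55 in mutants (log2 -0.19, SE 0.07, adjusted p = 0.132). Sem1, the smallest subunit of the regulatory particle, followed the pattern of Psmb4, with 8.97 on mutant 3 against 9.89 to 10.19 on the other arrays (log2 -0.25, SE 0.28). Of 12 genes that deliver substrates 0 passed, with 2 lower at an unadjusted p under 0.05 by limma, where 10.9% of all genes were lower. Vcp, the segregase that extracts ubiquitin-tagged proteins, read 11.77, 11.75 and 11.74 in controls and 11.59, 11.50 and 10.96 in mutants. It did not pass with all arrays (log2 -0.40, SE 0.15, adjusted p = 0.165) and passed without mutant 3 (log2 -0.21, SE 0.05, adjusted p = 0.0468) and with array weights (0.0187), but not without control 3 and mutant 3 together (0.0595). Zfand2b (log2 -0.21, SE 0.08, adjusted p = 0.155) was the other.

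Only 2 of the 7 listed genes for ubiquitin and its activating enzymes had a probe set with a symbol of their own, Uba6 (log2 0.06) and Uba7 (log2 0.23, SE 0.09, limma adjusted p = 0.186), and neither passed. Of 8 interferon and class I genes measured beside the immunoproteasome 0 passed by limma, where 5.92% of all genes were called. At an unadjusted p under 0.05 limma gave 1 gene, beside 22.7% of all genes. That was B2m, the light chain of class I molecules, at 11.14, 11.08 and 11.16 in controls and 11.23, 11.39 and 11.64 in mutants (log2 0.29, SE 0.10, adjusted p = 0.139). The interferon-induced Irf7 (log2 0.14, adjusted p = 0.353) and Ifit1 (log2 0.11, adjusted p = 0.442) did not pass.

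**Figure D4:**
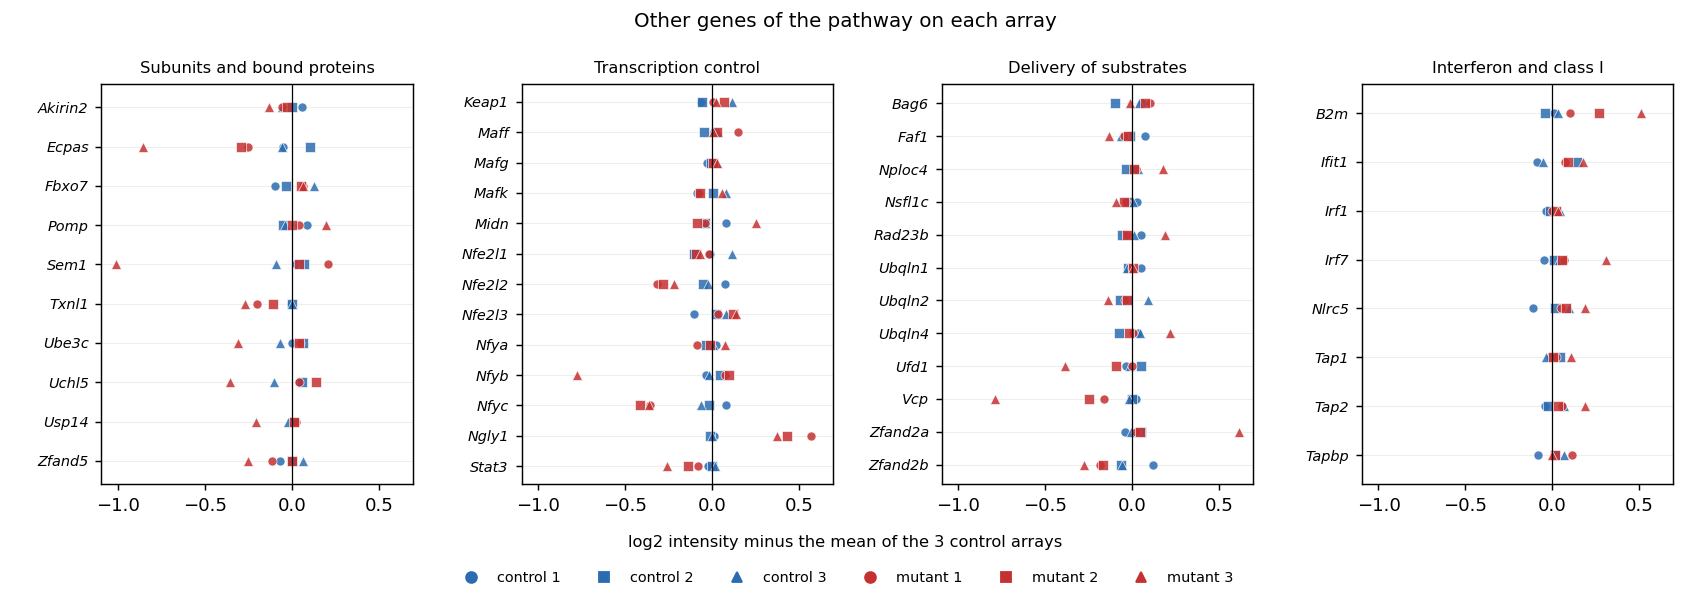
Other genes of the pathway in 4 panels by role, 1 gene to a row, with log2 intensity relative to the control mean on the x axis. Points are single arrays, blue for the 3 controls and red for the 3 mutants, shaped by replicate number. Ngly1 is the gene whose mutant points sit together to the right, with a mean change of 0.46, and those of Nfyc sit together to the left at -0.38.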

How the data were processed

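RNA of 6 pools was read on Affymetrix arrays from 150 ng of total RNA each, per the labels' protocols. The deposited intensity values were made with RMA, per the submitters' processing notes, a method of background correction, between-array normalization and probe summary. They are on a linear scale. Its version, the chip description and any filter were not stated in the labels. The log2 of each value was taken and nothing else was normalized. Symbols came from the platform annotation (16311 probe sets with 1 symbol, 734 with several, 1019 with none), and the gene ID of all 56 members matched RefSeq. All probe sets with 1 symbol entered 1 limma fit without covariates (limma 3.58.1, R 4.3.3, lmFit and eBayes), with Benjamini-Hochberg adjustment over these 16311 probe sets and a threshold of 0.05. The probe set with the highest mean stood for a gene. The fit was tested on simulated data. Probe set levels are not compared between genes.

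Values on every array are given, by rule, for called members, the 3 smallest p-values of each class, the catalytic, inducible and tissue-restricted core genes, and the largest rise and fall. Further members were given on every array outside this rule, and were chosen after their values were seen. Some were named for the behaviour of mutant 3. Others had further reasons, such as Psmd13 for having all mutants lower and Psmg3 as the partner of Psmg4. The members, lists and rules were chosen with earlier results of these data known. Pools are biological replicates per the labels, and spread between pools is what the p-values measure. The number of arrays limits precision. Alternatives were a replicate block, quantile normalization, median centring, a filter at the 40th percentile of level, all probe sets, robust and trended eBayes, array weights, the mean of a gene's probe sets and each array left out. Added after seeing the data were leaving out control 3 and mutant 3 together, and the probe set at the gene's own locus.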

Additional observations from a re-analysis of the deposited data

How the results depend on the processing

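Counts of 0 higher and 0 lower among the 48 genes held under every alternative except 2. The filter on level kept 44 of the 48 genes. The exceptions were array weights (1 higher, 3 lower) and leaving out control 3 and mutant 3 together (1 lower, chosen after seeing the data). The cause was not tested. Leaving out 1 array gave 0 and 0 each time, but most of these fits called few probe sets at all. Of 16311 probe sets, 50, 77 and 353 were called without control 1, 2 or 3, in that order. Without mutant 1 or 2 the calls were 515 and 385. With all arrays 972 were called, and without mutant 3 it was 2119. Where so few passed, counts of 0 among the 48 genes cannot show that the result is stable. The median of -0.090 was -0.038 without both arrays numbered 3 and ran from -0.120 to -0.032, the latter without mutant 3, with 1 array left out. The core median of -0.12 was -0.075 with array weights and ran from -0.13 to -0.044. The regulatory median of -0.12 was -0.062 with array weights and ran from -0.14 to -0.046, with -0.059 without both arrays numbered 3. The activator median of 0.088 is the change of Psmg3, a gene that the filter on level dropped. With that filter the median was 0.023. It was 0.037 after quantile normalization, 0.041 with array weights and 0.043 without both arrays numbered 3. With 1 array left out it ran from 0.044 to 0.12. The change of Psma8 turned to -0.023 after quantile normalization, ran from -0.011 to 0.053 with 1 array left out and was 0.063 without both arrays numbered 3. That of Psmb5 turned to -0.085 with array weights and to -0.085 without both arrays numbered 3, and ran from -0.11 to 0.12. Of the changes of 18 named genes under all alternatives, 277 kept their direction and side of the threshold, 6 turned and 2 passed (Psmd10 and Psmg4 with array weights). Much of this tally was fixed in advance. The block, the filter, all probe sets, robust and trended eBayes and the own-locus probe set leave these changes as they were. The mean of probe sets does so for all but Psma5 and Psmc1. Where few probe sets passed, keeping to 1 side of the threshold shows little. With the replicate number as a block, 0 higher and 0 lower of 48 genes were called, the median was -0.090 and calls over all probe sets went from 972 to 1189. The samples share only a number: same-numbered deviations correlated at 0.134, 0.0769 and 0.316, and mutants 1 and 2 correlated best with another number's control.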
